A study of Danio rerio with 11 samples.

Results

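Transcript levels of 7 zebrafish genes of the heat shock system were followed in larvae whose parents had been exposed to butyl phthalates. The genes are hsp70l (ENSDARG00000055723), hsp70.1 (ENSDARG00000029688), hsp90aa1 (ENSDARG00000024746), hsph1 (ENSDARG00000019874), fkbp4 (ENSDARG00000008447), serpinh1 (ENSDARG00000019949) and hsf2 (ENSDARG00000053097). They were taken by Ensembl identifier, 7 of the 27625 genes in the deposited tables, and all 7 passed the filter on low values. They were chosen by their FPKM levels and differences in these same libraries, so these values, and the counts of calls among them below, are a description, and their p-values are not given. Symbols are printed in lower case. The set is called cytosolic, which holds for the products of 5 genes. The product of serpinh1 works in the endoplasmic reticulum, and that of hsf2 is a transcription factor.

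Heat shock proteins bind unfolded or partly folded proteins and help them fold. HSP70 proteins take up exposed stretches of a client with the help of DNAJ proteins and of HSP110 proteins, which swap their nucleotide, and HSP90 proteins finish the folding of kinases and steroid receptors together with co-chaperones such as FKBP4. Under protein-damaging stress the heat shock factor HSF1 raises transcription of the inducible members, while relatives such as hspa8 and hsp90ab1 are made constantly in most cells. In zebrafish, hsp70l is widely used as a readout of heat and chemical stress and is also made in the embryonic lens.

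All larvae were wild type AB fish, collected whole at 120 h after fertilization. They were offspring of adults exposed for 30 days to both phthalates (the combined exposure, labelled DBP + DiBP in the plots, 3 libraries), to dibutyl phthalate (DBP, 3 libraries), to its branched-chain isomer diisobutyl phthalate (DiBP, 3 libraries), or to no agent (control, 2 libraries). The series describes triplicates, and 1 control library was not analysed here. The labels state neither doses nor how many larvae or clutches a library holds. The p-values below therefore measure spread between these libraries, which may be technical.

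Depth was similar, with 13396589 to 15381114 reads counted per library. Libraries 1 and 2 of the combined exposure, and the libraries within the DBP and DiBP groups, lay close together, with a mean chi-square of 2.18 to 5.36 per gene between replicates. Library 3 of the combined exposure differed from the others of its group by 27.9 and 28.9, and the 2 controls differed from each other by 158. Control library 1 also stood apart in tissue markers. Its summed FPKM (fragments scaled for transcript length and library depth) was 12979 over 28 muscle markers, against 45670 in control library 2 and 40992 to 59345 in the exposed libraries. Its 23 lens markers summed to 22070 FPKM, against 3869 in control library 2 and 1693 to 3092 in the exposed libraries. Its 21 skin markers summed to 1361 FPKM, against 3164 in control library 2 and 3387 to 5258 in the exposed libraries. The part of these libraries' makeup in the results below was not tested, and the differences from control are given with and without combined library 3 and control library 1, called the outlying libraries below. In bulk RNA of whole larvae, fewer cells of a type and less RNA per cell cannot be told apart.

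**Figure D1:**
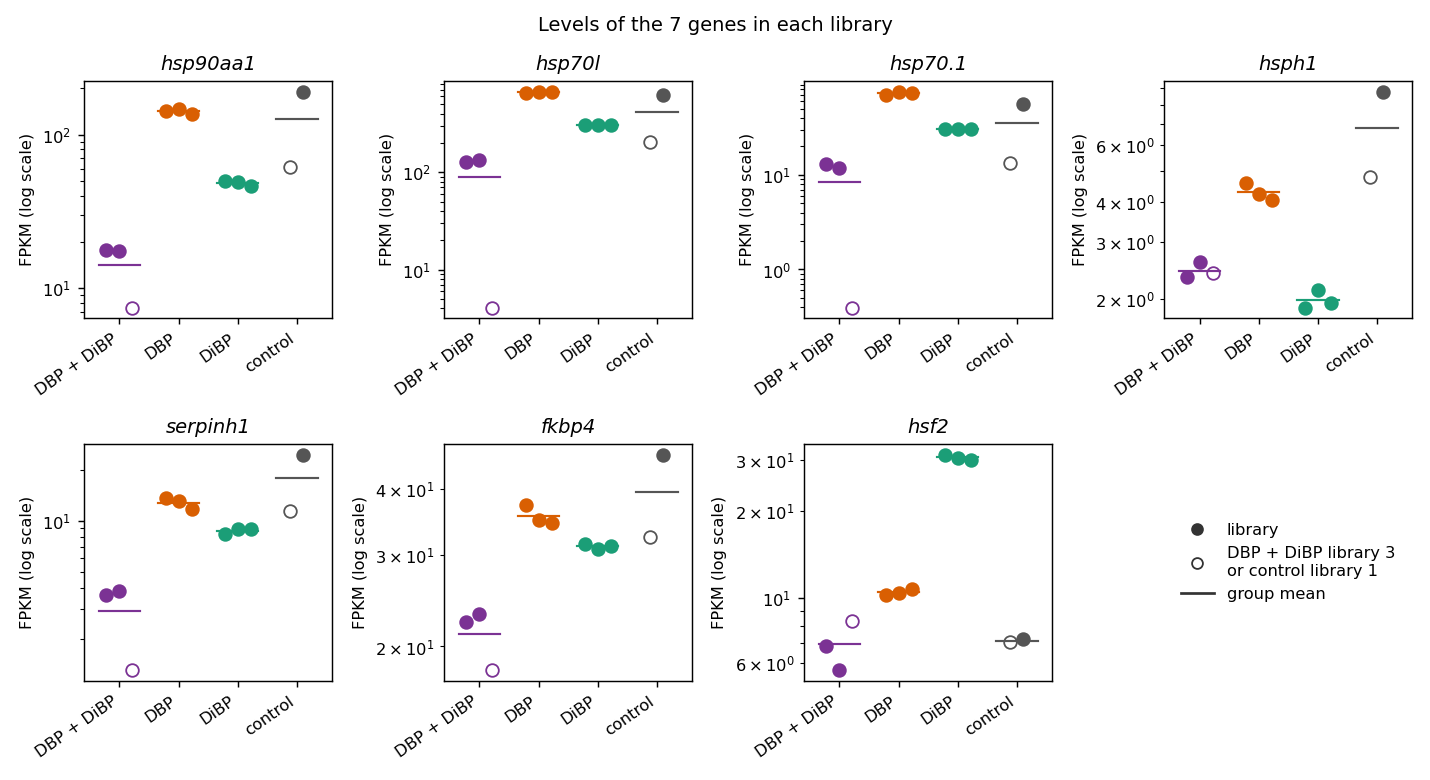
FPKM (log axis) of the 7 genes in each of the 11 libraries, by exposure of the parents. Points are libraries, open points mark combined library 3 and control library 1, and lines are group means. Combined library 3 lies lowest of all libraries for hsp70l (4.07 FPKM), hsp70.1 (0.396 FPKM) and hsp90aa1 (7.46 FPKM), and hsf2 stands highest in the 3 DiBP libraries.

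The inducible HSP70 gene hsp70l had the highest mean FPKM of the set in every group. It had 128, 133 and 4.07 FPKM in the combined exposure, 650, 670 and 660 FPKM in DBP, 303, 306 and 305 FPKM in DiBP, and 204 and 619 FPKM in control. All 3 DBP libraries lay above both controls, all 3 combined libraries lay below both, and DiBP lay between the controls. Ranked by FPKM among all 27625 genes, hsp70l was number 131 to 135 in DBP and 213 to 217 in DiBP, while in the combined exposure it was number 451, 425 and 9025. It was number 287 and 134 in the controls. Combined library 3 held 134 hsp70l reads, against 4136 and 4409 in libraries 1 and 2 of that exposure, a 32.1-fold gap in FPKM.

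Its relative hsp70.1 gave the same order at a lower level. Its FPKM was 13.1, 11.97 and 0.396 in the combined exposure, 69.8, 75.6 and 74.0 in DBP, 30.7, 30.5 and 30.8 in DiBP, and 13.3 and 56.6 in control. Again DBP lay above both controls, the combined exposure below both and DiBP between them. Combined library 1 was close to control library 1, with overlapping exact 95% Poisson intervals of 11.9 to 14.4 and 12.1 to 14.6 FPKM. The value of combined library 3 rests on 13 reads, with an exact 95% Poisson interval of 0.211 to 0.676 FPKM that covers counting error only. The level of hsp70l stood at 8.86 to 11.1 times that of hsp70.1 in 10 libraries and at 15.3 times in control library 1. In combined library 3 the ratio was 10.3, inside that range, although both genes were far lower there.

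The HSP90 gene hsp90aa1, whose human counterpart is the stress-inducible form, had 17.6, 17.4 and 7.46 FPKM in the combined exposure and 142, 146 and 136 FPKM in DBP. In DiBP it had 50.02, 49.2 and 45.99 FPKM, and in control 61.8 and 190 FPKM. Both combined and DiBP libraries lay below both controls, with the combined exposure lowest, while DBP lay between the controls. The mean of combined libraries 1 and 2 was 2.34 times the level in library 3. How reads shared with close HSP90 copies were counted is not stated, so these levels may carry that uncertainty.

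The HSP110 gene hsph1, a nucleotide exchange partner of HSP70, was low in every library. Its FPKM was 2.33, 2.602 and 2.395 in the combined exposure, 4.58, 4.23 and 4.04 in DBP, 1.88, 2.12 and 1.94 in DiBP, and 4.79 and 8.78 in control. On FPKM as deposited every exposed library lay below both controls, and DiBP was the lowest group. For DBP the gap to control library 1 was small. The 95% Poisson intervals overlapped, at 4.03 to 5.18 FPKM in DBP library 1 and 4.23 to 5.40 FPKM in control library 1. In this gene combined library 3 did not stand apart.

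The HSP90 co-chaperone fkbp4, an immunophilin that joins steroid receptor complexes, spanned the narrowest range. It had 22.3, 23.04 and 18.01 FPKM in the combined exposure, 37.4, 34.9 and 34.5 FPKM in DBP, 31.4, 30.7 and 31.2 FPKM in DiBP, and 32.5 and 46.6 FPKM in control. On FPKM as deposited the combined exposure and DiBP lay below both controls, and DBP lay between them. For DiBP the gap to control library 1 was small. The 95% Poisson intervals overlapped, at 29.6 to 33.4 FPKM in DiBP library 1 and 30.6 to 34.4 FPKM in control library 1.

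The collagen chaperone gene serpinh1, which encodes HSP47, had 3.63, 3.82 and 1.31 FPKM in the combined exposure and 13.5, 13.1 and 11.8 FPKM in DBP. In DiBP it had 8.39, 8.89 and 8.90 FPKM, and in control 11.4 and 24.6 FPKM. The combined exposure and DiBP lay below both controls, with the combined exposure lowest.

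The heat shock factor gene hsf2, whose product binds the same kind of promoter element as HSF1, followed another order. Its FPKM was 6.85, 5.64 and 8.33 in the combined exposure, 10.3, 10.4 and 10.8 in DBP, 31.3, 30.6 and 29.9 in DiBP, and 7.05 and 7.24 in control. All 3 DiBP libraries and all 3 DBP libraries lay above both controls, and the combined exposure overlapped the controls. It was also the only one of the 7 genes whose controls were close, at a ratio of 1.03 for control library 2 over control library 1. That ratio was 3.03 for hsp70l, 4.25 for hsp70.1, 3.07 for hsp90aa1, 1.83 for hsph1, 1.44 for fkbp4 and 2.16 for serpinh1.

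Within the DBP and DiBP groups the 7 genes were tightly reproduced. The coefficient of variation over 3 libraries was 1.47% (hsp70l) to 7.15% (serpinh1) in DBP and 0.494% (hsp70.1) to 6.47% (hsph1) in DiBP. For the combined exposure it was 5.78% in hsph1 and 82.8% in hsp70.1. In control it was 1.86% for hsf2 and 87.5% for hsp70.1. Group means (SD, n = 3) of hsp90aa1 were 14.1 ± 5.78 FPKM in the combined exposure, 141 ± 4.66 in DBP and 48.4 ± 2.13 in DiBP, against 126 ± 90.4 in control (n = 2).

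The doses behind the 2 isomers are not known, so their levels are only set side by side. The DBP mean was 2.92 times the DiBP mean for hsp90aa1, 2.38 times for hsp70.1, 2.17 times for hsp70l, 2.16 times for hsph1, 1.47 times for serpinh1 and 1.14 times for fkbp4. The DiBP mean of hsf2 was 2.91 times its DBP mean. The ranges of the DBP and DiBP libraries did not overlap for any of the 7 genes, which were chosen with these values known. The share of all genes with ranges apart was not counted, so nothing is read from this.

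Differences from control were taken on the log2(FPKM + 0.1) scale after scaling the libraries, with all 11 libraries in 1 limma fit. For the combined exposure minus control they were -3.17 ± 1.15 for hsp70l (SE), -2.75 ± 1.11 for hsp70.1, -3.10 ± 0.41 for hsp90aa1, -1.44 ± 0.21 for hsph1, -0.96 ± 0.14 for fkbp4, -2.68 ± 0.38 for serpinh1 and -0.13 ± 0.16 for hsf2. Without combined library 3 and control library 1 they were -2.34 ± 0.06, -2.26 ± 0.09, -3.53 ± 0.08, -1.89 ± 0.15, -1.14 ± 0.07, -2.79 ± 0.10 and -0.31 ± 0.12 in the same order of genes. The 6 chaperone genes were lower than control in both forms. With those libraries out, the control is 1 library, which the fit assumes to vary like the other groups. With all libraries in, each standard error likewise rests on 1 variance per gene shared by the 4 groups. It can understate the spread of a group whose libraries lie far apart, such as control (61.8 and 190 FPKM for hsp90aa1).

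**Figure D2:**
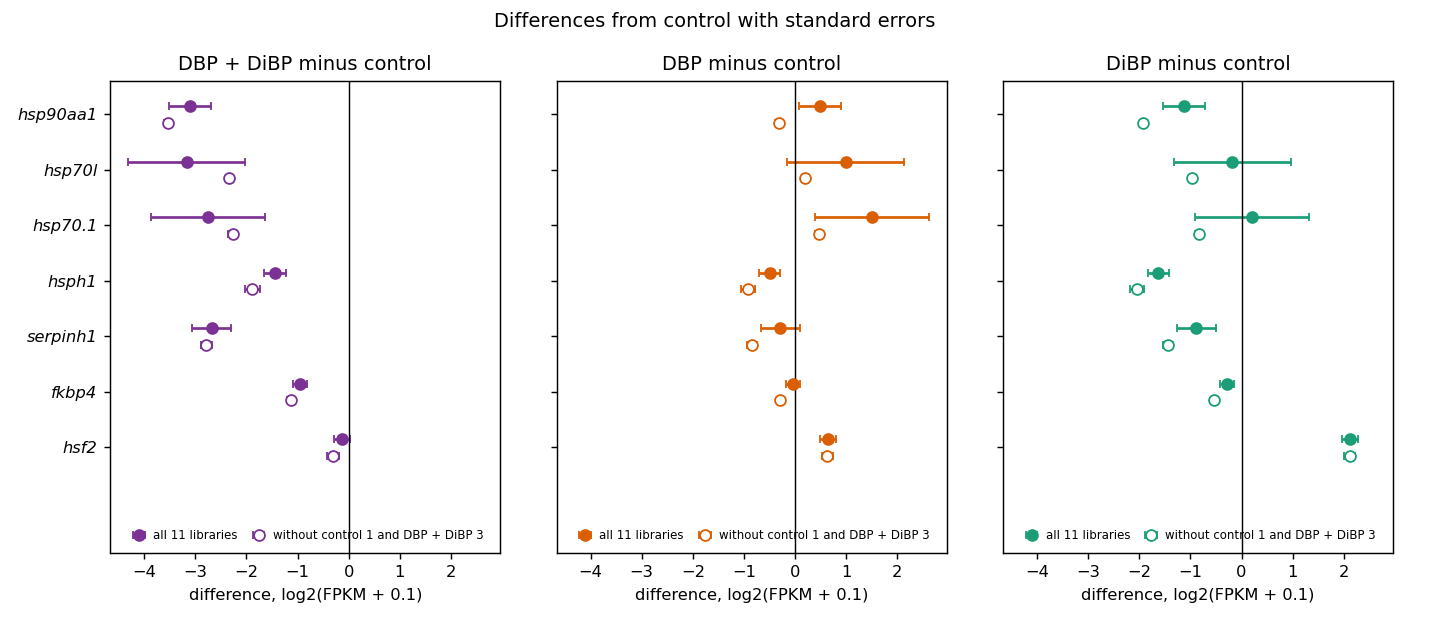
Difference from control (log2 scale, x axis) for each of the 7 genes, with standard errors, for the combined exposure, DBP and DiBP. Filled points use all 11 libraries and open points leave out control library 1 and combined library 3. In the combined exposure the 6 chaperone genes lie left of 0 in both forms, and in DBP hsp90aa1 changes side, at 0.48 with all libraries and -0.32 without those.

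For DBP minus control the differences were 0.99 ± 1.15 for hsp70l, 1.503 ± 1.11 for hsp70.1, 0.48 ± 0.41 for hsp90aa1, -0.50 ± 0.21 for hsph1, -0.03 ± 0.14 for fkbp4, -0.29 ± 0.38 for serpinh1 and 0.64 ± 0.16 for hsf2. The value of hsp90aa1 had the other sign without control library 1, at -0.33 ± 0.34. With both outlying libraries left out they were 0.19 ± 0.06 for hsp70l, 0.47 ± 0.08 for hsp70.1, -0.32 ± 0.07 for hsp90aa1, -0.92 ± 0.14 for hsph1, -0.29 ± 0.07 for fkbp4, -0.84 ± 0.10 for serpinh1 and 0.63 ± 0.11 for hsf2. The HSP70 values were then nearer 0, those of hsph1, fkbp4 and serpinh1 were further below it, and hsf2 hardly moved.

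For DiBP minus control, hsf2 was higher by 2.13 ± 0.16 and hsph1 lower at -1.62 ± 0.21. The other values were -0.18 ± 1.15 for hsp70l, 0.20 ± 1.11 for hsp70.1, -1.12 ± 0.41 for hsp90aa1, -0.28 ± 0.14 for fkbp4 and -0.89 ± 0.38 for serpinh1. With both outlying libraries left out the value of hsp70.1 had the other sign, at -0.83 ± 0.08. The rest were then -0.97 ± 0.06 for hsp70l, -1.92 ± 0.07 for hsp90aa1, -2.05 ± 0.14 for hsph1, -0.53 ± 0.07 for fkbp4, -1.43 ± 0.10 for serpinh1 and 2.11 ± 0.11 for hsf2, so that all 6 chaperone genes lay below control.

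An adjusted p (Benjamini-Hochberg over all 19462 genes tested) under 0.05 was the rule for a call, and the choice of the 7 genes used these contrasts, so nothing is read from their counts. In the combined exposure against control 4 of the 7 were called, all lower (hsp90aa1, hsph1, fkbp4 and serpinh1), with 3.01% of all genes called, 1.5% higher and 1.52% lower. In DBP 1 was called, hsf2, higher, with 13.8% of all genes called, 8.94% higher and 4.87% lower. In DiBP hsf2 was called higher and hsph1 lower, with 29% of all genes called, 15.3% higher and 13.7% lower. DBP against DiBP gave hsp90aa1 and hsph1 higher and hsf2 lower, with 11.5% of all genes called, 5.88% higher and 5.6% lower. All 7 were called lower in the combined exposure than in DBP, with 19.1% of all genes called, 8.5% higher and 10.6% lower. Against DiBP, 4 were called in the combined exposure, all lower (hsp90aa1, fkbp4, serpinh1 and hsf2), with 23.1% of all genes called, 10.7% higher and 12.4% lower.

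The interaction, the combined exposure minus DBP minus DiBP plus control, measures how far the mixture departs from a sum of the log2 effects of its parts. It was -3.98 ± 1.54 for hsp70l, -4.46 ± 1.495 for hsp70.1, -2.46 ± 0.55 for hsp90aa1, 0.68 ± 0.28 for hsph1, -0.64 ± 0.18 for fkbp4, -1.50 ± 0.51 for serpinh1 and -2.90 ± 0.21 for hsf2. Called were hsp70.1, hsp90aa1, fkbp4, serpinh1 and hsf2, 5 of the 7, all lower, with 32.8% of all genes called, 14.9% higher and 17.9% lower. Leaving out control library 1 alone took hsp70.1 to -3.42 (95% interval -7.12 to 0.29) and serpinh1 to -0.95 (95% interval -2.07 to 0.17), both of which then include 0. Without control library 1 and combined library 3 the values were -1.56 ± 0.07, -1.902 ± 0.10, -1.29 ± 0.09, 1.08 ± 0.18, -0.31 ± 0.09, -0.51 ± 0.12 and -3.06 ± 0.14. The value of hsf2 was large in both forms: hsf2 was higher than control in DBP and in DiBP and near control in the combined exposure.

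Close relatives of the 7 genes differed, with some that moved with them, some that hardly moved and some that moved otherwise. The HSP110 relative hspa4 (ENSDARG00000018989) was higher in DiBP than in control by 0.72 (limma adjusted p 0.0130), where hsph1 was lower. It was also higher in DBP, by 0.66 (limma adjusted p 0.0338). Without control library 1 these differences were 0.32 and 0.26. The DBP call was lost when control library 1, or any single DBP or DiBP library, was left out. The other hspa4 entry (ENSDARG00000004754) was not called against control with all libraries. It was at -0.24 in DiBP, 0.54 in DBP and -1.10 in the combined exposure (limma adjusted p 0.604, 0.289 and 0.0935). Without control library 1 these values were -0.96, -0.19 and -1.83. The HSP70 gene hsp70.3 (ENSDARG00000021924) had 33.2, 31.4 and 1.45 FPKM in the combined exposure, 172, 182 and 176 FPKM in DBP, 76.3, 77.3 and 75.8 FPKM in DiBP, and 33.7 and 167 FPKM in control. A further HSP70 entry, hspa2 (ENSDARG00000092362), which was singled out after its values were seen, had 29.7, 29.6 and 2.09 FPKM in the combined exposure, 187, 207 and 187 FPKM in DBP, 79.5, 79.3 and 77.9 FPKM in DiBP, and 36.0 and 151 FPKM in control. Both showed the order of hsp70l, with combined library 3 far below every other library. Together these 4 HSP70 genes took 0.0472%, 0.0476% and 0.00185% of all reads in the combined exposure, 0.249% to 0.262% in DBP, 0.113% to 0.114% in DiBP, and 0.0663% and 0.230% in control. In RefSeq's gene order hsp70.1, hsp70.2 and hsp70.3 are neighbours. Whether the entry printed as hspa2 is hsp70.2 was not checked, so it may not be a gene apart from this cluster. Copies of HSP70 genes can be near-identical, and nothing states how reads that match several of them were counted, so the split of reads among them is uncertain.

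**Figure D3:**
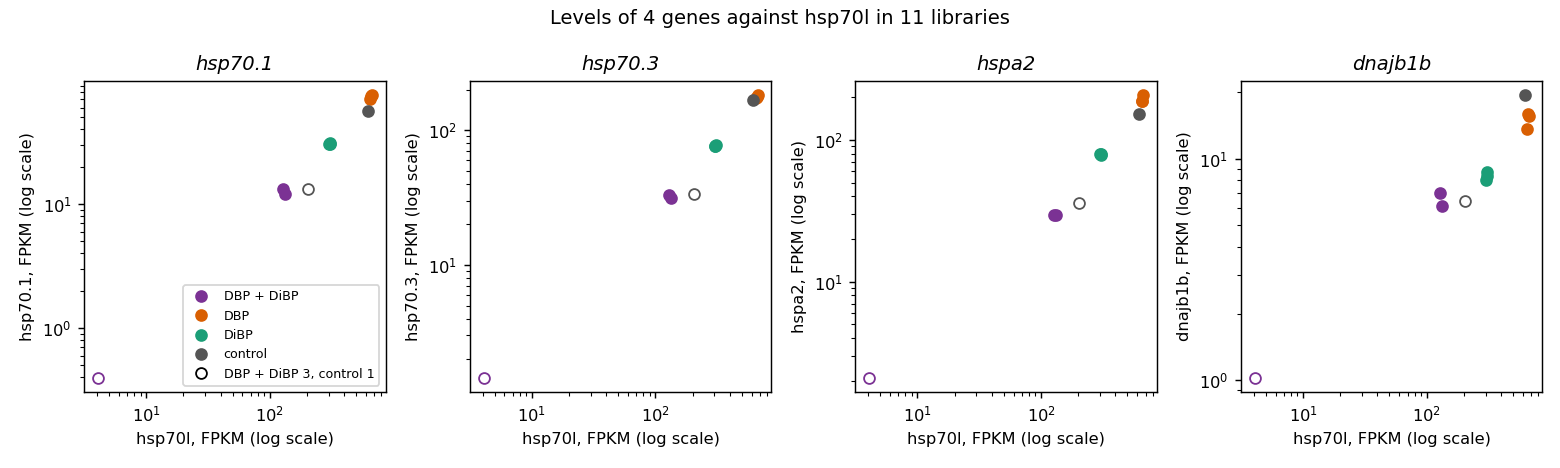
FPKM of hsp70.1, hsp70.3, hspa2 and dnajb1b against that of hsp70l in 11 libraries, both axes logarithmic. Each point is 1 library, coloured by exposure, with combined library 3 and control library 1 open. The HSP70 genes keep the order of hsp70l over the groups, and combined library 3 lies alone at the lower left at 4.07 FPKM of hsp70l.

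The constantly made relatives were far flatter. The HSP70 gene hspa8 (ENSDARG00000068992) had 571, 563 and 499 FPKM in the combined exposure, 658, 678 and 659 FPKM in DBP, 662, 662 and 660 FPKM in DiBP, and 485 and 608 FPKM in control. In DBP hsp70l was thus as abundant as hspa8, at 0.987 to 1.001 times its FPKM, while in combined library 3 it stood at 0.00816 times. This parity was not particular to DBP, since the ratio was 1.02 in control library 2 and 0.421 in control library 1. The HSP90 gene hsp90ab1 (ENSDARG00000029150) had 588, 588 and 468 FPKM in the combined exposure, 419, 422 and 426 FPKM in DBP, 515, 524 and 520 FPKM in DiBP, and 432 and 526 FPKM in control. Neither of these abundant entries was called against control. In the combined exposure, DBP and DiBP their limma adjusted p was 0.780, 0.0533 and 0.0608 for hspa8 and 0.602, 0.693 and 0.308 for hsp90ab1. The other hspa8 entry (ENSDARG00000037403), at 0.775 to 3.33 FPKM, was called lower in DiBP, at -1.03 (limma adjusted p 0.0114). It was also called lower in the combined exposure, at -1.54 (limma adjusted p 0.0111). For the abundant hspa8 entry the DBP and DiBP values passed without combined library 3, at limma adjusted p of 0.0420 and 0.0488, and also without control library 2. Over the alternatives those of hspa8 ranged from 0.000914 to 0.215 in DBP and from 0.00123 to 0.223 in DiBP. For hsp90ab1 the DiBP value passed without control library 2, and the DBP value passed without both outlying libraries (0.0274).

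The product of the muscle HSP90 gene hsp90aa1.1 (ENSDARG00000010478) folds myosin in zebrafish, and the gene lies beside a near copy, hsp90aa1.2, in RefSeq's gene order. How reads that match both copies were counted is not stated, so the split of reads between them is uncertain. Whether the entry printed as hsp90aa1 (ENSDARG00000024746) is this near copy was not checked, so the same limit may hold for its levels and differences. The entry hsp90aa1.1 had 2.95, 3.29 and 4.24 FPKM in the combined exposure. It had 12.3, 14.6 and 14.2 FPKM in DBP, 14.0, 13.2 and 13.6 FPKM in DiBP, and 3.81 and 13.9 FPKM in control. Control library 1, the one with low muscle markers, was low here too, and the part of muscle in this was not tested. The interaction was -3.05 ± 0.53 with a limma adjusted p of 0.00175, which ranged from 1.66e-06 to 0.00599 over the alternatives. The HSP70 gene hspa1b (ENSDARG00000056210) was likewise lower in the interaction, by -3.02 ± 0.45 with a limma adjusted p of 0.000728. It rose in DBP by 1.44 ± 0.34 at a limma adjusted p of 0.0187, but not without control library 1, where the difference was 0.69 at an adjusted p of 0.0597, nor without DBP library 2 or 3.

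The heat shock factor gene hsf1 (ENSDARG00000008818), the main activator of the stress response, had 0.365 to 1.33 FPKM over the 11 libraries and was not called against control in any exposure. Its limma adjusted p was 0.297 in the combined exposure, 0.738 in DBP and 0.0806 in DiBP. Over the alternatives it ranged from 0.0472 to 0.829 in the combined exposure, from 0.218 to 0.914 in DBP and from 0.0146 to 0.522 in DiBP, and the combined and DiBP values passed without control library 2. The FKBP4 relative fkbp5 (ENSDARG00000028396), a known target of the glucocorticoid receptor, had 104, 104 and 50.7 FPKM in the combined exposure, 76.4 to 77.5 FPKM in DBP, 86.8 to 89.97 FPKM in DiBP, and 46.1 and 87.9 FPKM in control. It was not called against control with all libraries, at limma adjusted p of 0.608, 0.417 and 0.192 in the combined exposure, DBP and DiBP, though the DBP and DiBP values passed without control library 2. The other serpinh1 entry (ENSDARG00000075954) had 0.804 to 2.07 FPKM. It was at -0.74 in the combined exposure minus control with a limma adjusted p of 0.0828, and passed without control library 1 at 0.0444.

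**Figure D4:**
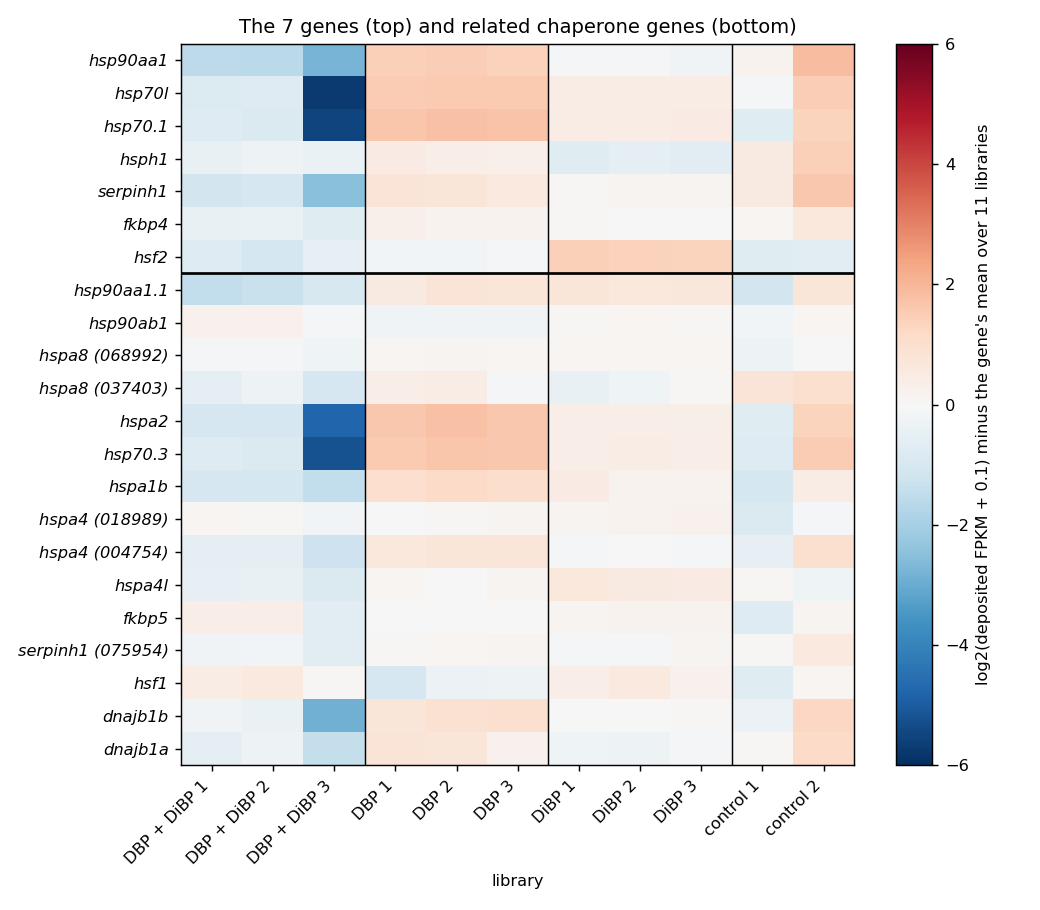
Level of each gene in each library relative to its own mean over the 11 libraries (colour, log2 of deposited FPKM + 0.1), for the 7 genes above the line and related genes below it. Blue is lower and red higher, and numbers in brackets are the last digits of the identifier. The column of combined library 3 is dark blue for hsp70l, hsp70.1, hspa2 and hsp70.3 and pale for hsp90ab1, hsph1 and the abundant hspa8 entry.

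Outside the 7 genes, lists of cytosolic chaperones, co-chaperones, heat shock factors and quality control genes held 87 further genes, of which 80 were tested. In the combined exposure against control 5 of the 80 fell and none was called higher (6.25%, against 3.01% of all genes). They were hspa8 (ENSDARG00000037403) by -1.54 ± 0.25, ahsa1 (ENSDARG00000100317), an activator of HSP90, by -1.002 ± 0.17, the small heat shock gene hspb1 by -0.90 ± 0.17, the HSP110 relative hspa4l by -0.61 ± 0.13 and ptges3, the HSP90 co-chaperone p23, by -0.61 ± 0.14. Their limma adjusted p-values were 0.0111, 0.0145, 0.0242, 0.0339 and 0.0440. The calls of hspa4l and ptges3 were lost when any 1 library other than control library 2 or combined library 3 was left out, and that of hspb1 without combined library 1 or 2. With both outlying libraries left out, where control is 1 library, the calls among the 80 were again mostly lower. The share of all genes called was then larger too. The median difference of the 80 was -0.08, against 0.00 for all genes.

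In DBP against control 8 of the 80 rose and 2 fell (12.5%, against 13.8% of all genes), a share near the background. The polyubiquitin gene ubb had 2 entries that rose, by 0.82 ± 0.10 (ENSDARG00000002369) and 0.72 ± 0.10 (ENSDARG00000093313), with limma adjusted p of 0.00109 and 0.00195. The small heat shock gene hspb15 rose by 0.78 ± 0.12, the HSP70 relative hspa14 by 0.64 ± 0.12 and unc45b, the HSP90 co-chaperone for myosin, by 1.02 ± 0.19. Their limma adjusted p-values were 0.00293, 0.00663 and 0.00743. The ahsa1 entry ENSDARG00000028664 fell by 1.26 on that scale (adjusted p 0.0118). With both outlying libraries left out, where control is 1 library, calls among the 80 were still more often higher than lower. The median of the 80, 0.08 with all libraries, was then -0.02.

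In DiBP against control 13 of the 80 rose and 7 fell (25%, against 29% of all genes). The gene unc45b rose by 1.78 ± 0.19, dnaja2 (ENSDARG00000104066), a DNAJ partner of HSP70, by 0.56 ± 0.08, nploc4, which helps extract ubiquitin-tagged proteins, by 0.94 ± 0.16, and the small heat shock gene hspb6 by 2.59 ± 0.47. The level of hspb6 was 8.06, 8.93 and 10.1 FPKM in DiBP, against 0.726 and 2.80 FPKM in control, and without control library 1 its difference was 1.69. The limma adjusted p-values of these genes were 0.000215, 0.000679, 0.00212 and 0.00318. The HSP110 relative hspa4l rose by 0.68 ± 0.13 and hspa14 by 0.60 ± 0.12, at adjusted p of 0.00343 and 0.00431. Among the 7 that fell was hspa8 (ENSDARG00000037403), at -1.03 (limma adjusted p 0.0114), a call kept under every alternative. The gene unc45b had 2.29 to 2.47 FPKM in DiBP, against 0.550 and 0.762 FPKM in control, so these groups did not overlap. Leaving out both outlying libraries, where control is 1 library, turned the split of the 80, with more called lower than higher.

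In the interaction 24 of the 80 were lower and 3 higher (33.8%, against 32.8% of all genes). The split of all genes was 14.9% higher and 17.9% lower. The lowest adjusted p-values were those of unc45b (-2.55 ± 0.26, limma adjusted p 7.79e-05), hspa14 (-1.44 ± 0.16, 0.000116) and hspa4l (-1.57 ± 0.17, 0.000117). The DNAJ gene dnaja2 (ENSDARG00000010745) went the other way, at 0.77 ± 0.12 (0.000754). The genes named for the interaction kept their call without control library 1, without combined library 3 and without both. They were picked for the smallest p-values in this same contrast, so nothing is read from this. The interaction calls of hsp70.3 and hspa4 (ENSDARG00000004754), relatives not picked by p-value, were lost without control library 1 or any single DBP or DiBP library. They held in 10 and 11 of 20 settings, and that of hspa4 was also lost without combined library 3. The call of hspa2 was lost without control library 1. Those of hsp90aa1.1, the abundant hspa8 entry and hspa4 (ENSDARG00000018989) were kept in every setting. On FPKM as deposited the split of the 80 was 9 higher and 20 lower, with 4603 of all 19462 genes higher and 2691 lower.

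The combined exposure was also set against each isomer. Against DBP 25 of the 80 were lower and 2 higher (33.8%, against 19.1% of all genes), and against DiBP 19 were lower and 3 higher (27.5%, against 23.1% of all genes). Of the 7 tested genes of the HSP70 list, 6 were lower than in DBP. The combined exposure was lower than DBP in hspa14 by -0.85 ± 0.10 (limma adjusted p 0.000613) and lower than DiBP in hspa4l by -1.29 ± 0.11 (limma adjusted p 3.84e-05). DBP against DiBP gave 7 of the 80 higher and 8 lower (18.8%, against 11.5% of all genes).

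**Figure D5:**
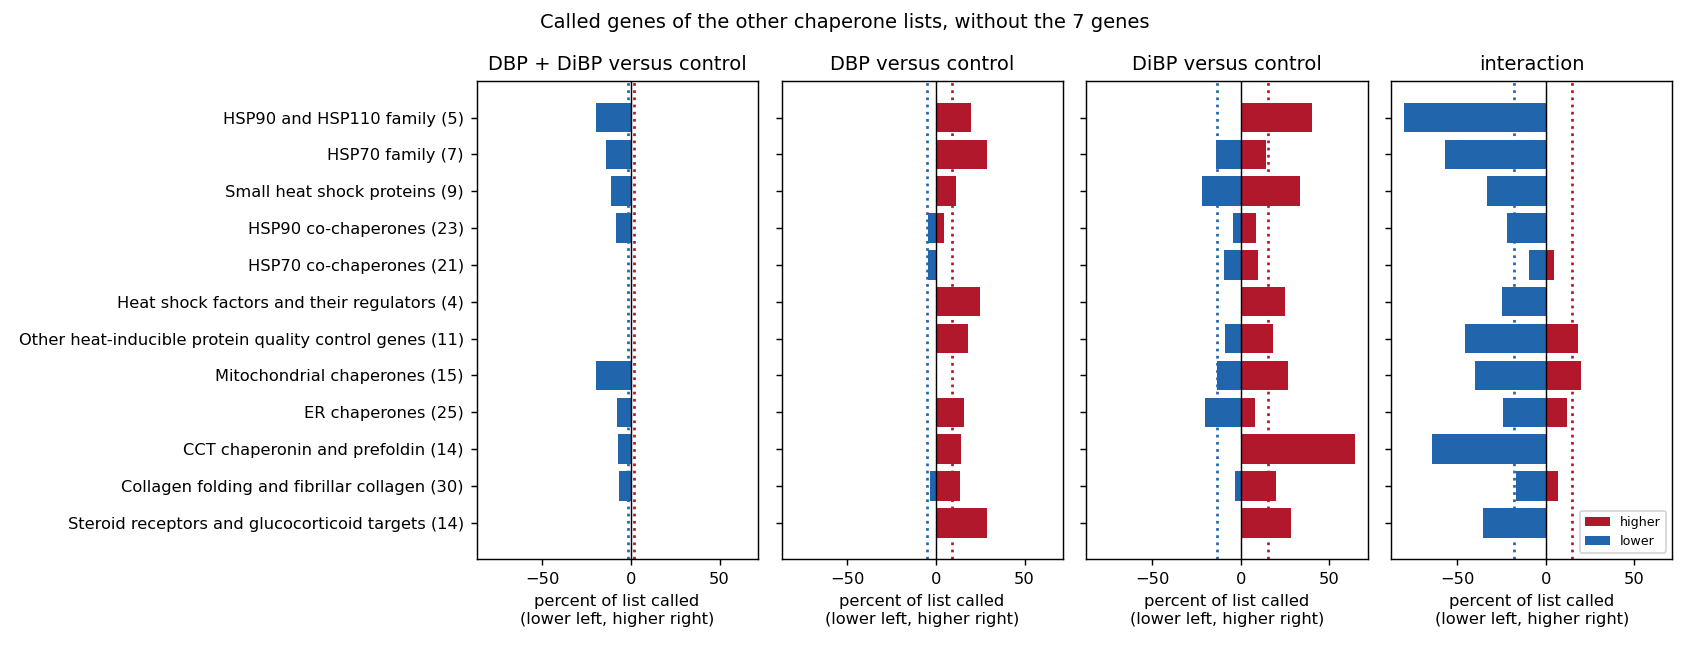
Percent of the tested genes of each list that were called higher (right, red) or lower (left, blue), without the 7 genes, in 3 comparisons with control and the interaction. Numbers in brackets are the genes tested, and dotted lines are the percent of all genes called each way. In DiBP 9 of 14 genes of the CCT chaperonin and prefoldin list stand higher, and in the interaction 9 of 14 stand lower.

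Chaperones of other compartments were examined in the same fit. The CCT chaperonin and prefoldin genes, which fold actin and tubulin, held 9 of 14 that rose in DiBP (64.3%, against 29% of all genes called and 15.3% called higher), among them cct3 by 0.66 ± 0.12, cct5 by 0.55 ± 0.13 and tcp1 by 0.42 ± 0.10 (limma adjusted p 0.00356, 0.0102 and 0.0134). Without control library 1, where control is 1 library, fewer of the 14 were called higher and not every call was higher. Fewer of all genes were called there too. Without scaling of the libraries 6 of the 14 were higher and 1 lower, with 2669 of all 19462 genes higher and 3042 lower. The call of tcp1 was lost without control library 1, at 0.25 and an adjusted p of 0.0731. In the interaction 9 of the 14 were lower (64.3%, against 32.8% of all genes called and 17.9% called lower), among them cct3, pfdn5 and cct4, against 6 without scaling of the libraries. Unscaled, 2691 of all 19462 genes were called lower in the interaction.

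The mitochondrial chaperone genes hspe1, hspa9 and hspd1 fell in the combined exposure, by -0.87 ± 0.12, -0.45 ± 0.10 and -0.81 ± 0.18 (limma adjusted p 0.00679, 0.0371 and 0.0406), 3 of 15 tested (20%, against 3.01% of all genes called). The call of hspe1 held with every single library left out. That of hspa9 was lost when any library of DBP or DiBP, or combined library 1 or 2, was left out, and that of hspd1 when any library of an exposed group was left out. In DBP limma called 0 of the 15, against 13.8% of all genes, with 6 at an unadjusted p under 0.05. In DiBP 4 of the 15 rose and 2 fell (40%, against 29% of all genes called), among them dnaja3 by 1.61 ± 0.16, clpp, a protease subunit, by 0.78 ± 0.12 and hspa9 by 0.38 ± 0.10 (limma adjusted p 0.000168, 0.00140 and 0.0155), and the call of hspa9 was lost without control library 1. Of the 25 endoplasmic reticulum genes 2 fell in the combined exposure (8%, against 3.01% of all genes called), the HSP70 gene hspa5, also called BiP, by -0.86 ± 0.19 and the disulfide isomerase gene pdia6 by -0.60 ± 0.13 (limma adjusted p 0.0403 and 0.0387). Neither call held with control library 1 left out (limma adjusted p 0.0501 and 0.0634), nor with most other single libraries left out. In DiBP 2 of the 25 rose and 5 fell (28%, against 29% of all genes called), a share near the background. There pdia6 was also lower, at -0.99 ± 0.13 (limma adjusted p 0.000546), and p4hb was higher, at 0.48 ± 0.08 (limma adjusted p 0.00171). Both calls held under every alternative. In DBP 4 of the 25 rose and 0 were called lower (16%, against 13.8% of all genes called). Among them the stress sensor gene ern1 rose by 1.51 ± 0.14 (limma adjusted p 0.000287), with 5.03 to 6.11 FPKM in DBP against 2.13 and 1.85 FPKM in control.

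Genes of collagen and its folding, the clients and partners of the serpinh1 product, were set beside it. In the combined exposure 2 of 30 such genes fell, p3h3, a prolyl hydroxylase, by -0.97 ± 0.14 and crtap, which encodes cartilage-associated protein, by -0.61 ± 0.12 (limma adjusted p 0.00739 and 0.0262), which is 6.67% against 3.01% of all genes called, and none was called higher. The call of crtap was lost without control library 1, at a limma adjusted p of 0.0716, and without 5 other single libraries. The gene p3h3 also fell in DBP, at -1.35 ± 0.14 (limma adjusted p 0.000355), and in DiBP, at -0.47 ± 0.14 (0.0282). Its level was 4.95, 4.19 and 4.77 FPKM in the combined exposure, 2.93 to 3.32 FPKM in DBP, 6.05 to 6.18 FPKM in DiBP, and 9.87 and 7.72 FPKM in control. The DiBP call was lost without control library 1 or any DiBP library. In DiBP p3h3 was the only 1 of the 30 that fell, and 6 rose (23.3%, against 29% of all genes called). Among those that rose were fkbp7 by 1.07 ± 0.21 and col5a2 by 1.02 ± 0.25 (limma adjusted p 0.00469 and 0.0127). Without control library 1 these differences were 0.92 and 0.42. In DBP 4 of the 30 rose and 1 fell (16.7%, against 13.8% of all genes called). There col1a2 rose by 1.12 ± 0.26 and col1a1a by 0.81 ± 0.21 (limma adjusted p 0.0180 and 0.0282). The level of col1a2 was 12.4 FPKM in control library 1 and 29.2 FPKM in control library 2, and with control library 1 left out the differences were 0.499 for col1a2 and 0.33 for col1a1a. At that setting col1a1a was not called (limma adjusted p 0.0776). The call of col1a2 was lost without DBP library 2 or 3, and that of col1a1a without any of the DBP libraries.

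Among steroid receptor and glucocorticoid target genes, the clients and readouts of HSP90 with FKBP4, 4 of 14 rose in DBP and 4 in DiBP, with none lower (28.6% in each, against 13.8% of all genes called in DBP and 29% in DiBP, where the share is near the background). In the combined exposure limma called 0 of the 14, with 4 at an unadjusted p under 0.05, and the fit to recovered reads (voom) called 1. The cortisol-inactivating enzyme gene hsd11b2 rose in DBP by 1.48 ± 0.19 (limma adjusted p 0.00129). The kinase gene sgk1 rose by 0.69 ± 0.09 in DBP and by 0.73 ± 0.09 in DiBP (limma adjusted p 0.00137 and 0.000442). Entries of the clock gene per1 were also among these calls. The entry ENSDARG00000012499 rose by 2.33 ± 0.35 in DBP and by 4.998 ± 0.35 in DiBP (limma adjusted p 0.00266 and 1.61e-05). The entry ENSDARG00000056885 rose by 4.305 ± 0.58 in DiBP (limma adjusted p 0.000673). The part of glucocorticoid signalling in these calls was not tested.

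Genes most like each of the 7 over the 11 libraries were ranked by Pearson's r of log2 values, as a description only, because the libraries fall into 4 groups and share their depth and their outlying libraries. For hsp70.1 the nearest were hsp70.3 (r = 0.9990), hspa2 (0.996) and dnajb1b (0.983), a DNAJ partner of HSP70, and the same 3 led for hsp70l. For hsp90aa1 they were pik3ip1 (0.965), hspa4 (ENSDARG00000004754, 0.961) and pdcd4 (0.959). The nearest to fkbp4 was pik3ip1 (0.974), that to hsph1 was ro60 (0.974), and that to serpinh1 was its other entry (0.964). For hsf2 they were amd1 (0.994), cry2 (0.990) and the clock gene per1 (ENSDARG00000012499, 0.987), which had 23.8, 25.9 and 24.1 FPKM in DiBP and 0.664 and 0.725 FPKM in control. Among the 7 themselves, r ran from 0.425 to 0.994 between pairs of the 6 chaperone genes and from -0.451 to 0.292 between hsf2 and each of them.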

How the data were processed

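The authors deposited 1 FPKM value per gene and library. The submitters' processing notes name GRCz10, HISAT2 2.1.0 and HTSeq 0.6.0, without an annotation release, strand setting or counting mode. Per the labels' protocols, each library was built with the NEBNext Ultra kit from 3 µg of RNA, and Illumina sequencing gave 150 bp paired ends.

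Each value corresponded to a whole number of reads in 100.0% of genes, with a tolerance of 1e-06 reads beyond rounding error. These reads were used for depth, the filter, scaling and voom. A gene was tested if 2 libraries reached the CPM of 10 reads and its total was 15 or more: 19462 genes passed and 8163 did not. All 11 libraries were fitted together by limma 3.58.1 (R 4.3.3) as log2(FPKM / TMM factor + 0.1), using 1 mean per group, a trend on expression, 7 residual and 3.82 prior degrees of freedom, and Benjamini-Hochberg adjustment over all genes of each of 7 comparisons (threshold 0.05). TMM factors (30% and 5% trimmed) were 0.9348 to 1.1041. This scale understates changes of low genes. The steps were tested on simulated data.

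The 7 genes and the 17 gene lists were chosen with earlier results of these data known, and 284 of 303 listed names were found. Named from the lists were up to 6 called cytosolic chaperone genes and 3 of each other list with the smallest p in each comparison with control and the interaction, and fixed close relatives. Likeness was ranked among genes with a mean of 20 or more reads. Replicate numbers were not used as pairs: deviations of libraries with the same number correlated by -0.0334 to 0.136. Alternatives were no filter, RLE scaling, unscaled FPKM, a floor of 5 CPM on the mean, pseudocounts of 0.01 and 1, voom, a replicate block, only the groups compared, and leaving out each library or both outlying ones. Tables were made with Python 3.11.15, NumPy 2.4.6, pandas 2.3.3, SciPy 1.17.1 and Matplotlib 3.10.9. Identifiers with a symbol numbered 25392 of 27625, and gene order came from RefSeq (GRCz12tu), whose coordinates were not used.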

Additional observations from a re-analysis of the deposited data

Results flagged for a closer look

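The limma test of the interaction (combined exposure minus DBP minus DiBP plus control, log2 scale) called the 21 genes named here from the lists. They were picked among the called genes, up to a fixed number, for the smallest p-values in this same comparison. Their number and their calls follow from that choice, so nothing is read from them and the values are a description. Among cytosolic chaperones the values were -2.55 for unc45b, -1.44 for hspa14, -1.57 for hspa4l, -3.02 for hspa1b, 0.77 for dnaja2 (ENSDARG00000010745) and -1.02 for hspb15. Mitochondrial genes gave -1.29 for hspe1, -1.71 for dnaja3 and -1.71 for hspd1. Endoplasmic reticulum genes gave -1.02 for p4hb, -1.87 for ern1 and -1.19 for dnajc3a. Chaperonin and prefoldin genes gave -1.08 for cct3, -0.68 for pfdn5 and -0.91 for cct4. Collagen folding genes gave -0.92 for crtap, -1.63 for fkbp7 and 0.85 for p3h3. The steroid receptor and glucocorticoid target list gave -7.19 for the clock gene per1 (ENSDARG00000012499), -1.79 for sgk1 and -2.29 for pck1. Their adjusted p-values lay between 6.15e-06 and 0.00601, in a comparison where 32.8% of all genes were called.

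For hsp70l (-3.98) and hsp70.1 (-4.46) all 3 DBP libraries lay above both controls and all 3 combined libraries below both. For hsp70.1 combined library 1 (13.1 FPKM) and control library 1 (13.3 FPKM) had overlapping 95% Poisson intervals. The opposite sides of control were not tested against each other. The limma interaction called hsp70.1 and not hsp70l, and no weight is put on it, because both genes were chosen with these values known.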

How the results depend on the processing

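Under the alternatives 943 differences of the 7 genes moved by less than the spread between replicates and 77 by more, and 2 that had exceeded that spread changed sign, both for hsp90aa1 in DBP against control: -0.33 without control library 1 (1.29 without control library 2) and -0.32 without control library 1 and combined library 3. Smaller differences changed sign too: in DiBP hsp70l ran from -0.98 to 0.62 and hsp70.1 from -0.84 to 1.24, in DBP serpinh1 from -0.85 to 0.26 and fkbp4 from -0.30 to 0.23, and in the combined exposure hsf2 from -0.31 to 0.04. Among other named genes 190 values lost a call, 39 gained one and 2232 did neither. With only the groups compared in the fit, calls among the 80 further chaperone genes were 4 in DBP, 9 in DiBP and 0 in the combined exposure against control, and 35 in DBP against DiBP, with 679, 2961, 0 and 5988 genes called in all; at an unadjusted p under 0.05 limma called 1970 genes for the combined exposure in that fit. For the combined exposure against control the 80 gave 3 calls on FPKM as deposited, 3 without a filter (365 in all) and 2 with the replicate block (264 in all). The block changed no other count by over 1.5 times. Replicate numbers are not known to pair libraries, and 6 of 11 lay closest to their own number. Without control library 1 and combined library 3, the 80 gave 22 calls in DBP, 21 in the combined exposure (2097 in all), 35 in DBP against DiBP (6398 in all), 45 for combined minus DBP (7244 in all) and 42 for combined minus DiBP (7443 in all).

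Leaving out each library in turn gave 6 to 31 calls among the 80 in DBP (1362 to 5747 in all), 12 to 36 in DiBP (3312 to 8260), 2 to 20 in the combined exposure (207 to 4328), 6 to 27 in DBP against DiBP (922 to 4247), 17 to 39 in the combined exposure against DBP (2005 to 5946), 14 to 35 against DiBP (2779 to 6444) and 20 to 44 in the interaction (4968 to 8365). The highest count came without control library 2 in all 7 comparisons. FPKM as deposited moved the median of all genes to -0.10 in DBP, 0.16 for combined minus DBP, 0.11 for combined minus DiBP and 0.23 for the interaction. The share of calls that were higher was then 44.9% in DBP (64.7% with scaling), 70.6% in the combined exposure (49.7%), 39.8% in DBP against DiBP (51.2%), 73.5% for combined minus DBP (44.6%), 63.8% for combined minus DiBP (46.3%) and 63.1% for the interaction (45.4%). The interaction could not be fitted with only the groups compared, since it uses all 4. The cause of these changes was not tested. Groups of 2 or 3 libraries, and read numbers as low as 13 for hsp70.1, limit what can be seen.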
